A study of Rattus norvegicus with 4 samples.

Results

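The immediate early genes and Myc were followed in neonatal rat cardiomyocytes transfected with miRNA mimics. The members were taken by symbol from a named set of 10 genes: the AP-1 subunits Fos, Fosb, Jun, Junb and Jund, the transcription factors Egr1, Atf3 and Myc, the phosphatase Dusp1, and Ier2. Of these, 9 had a row among the 15731 genes listed with values, and Ier2 was not analysed here. The cells were heart muscle cells of the ventricles of wild type Wistar rats at postnatal day 1. They received a mimic of hsa-miR-25-3p, hsa-miR-93-5p or hsa-miR-106b-5p, which are the 3 miRNAs of 1 gene cluster, or the control mimic cel-miR-67, a miRNA of a worm. The mimic concentration is given as 25 nM in one protocol of the labels and as 25 mM in another, and RNA was harvested 72 h after transfection. Each mimic had 1 library, so no difference between mimics has a replicate check, and the 3 mimics share 1 control library. The question asked by the comparison is which transcripts differed when each miRNA of the cluster was raised in these cells.

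Immediate early genes are transcribed within minutes of a growth factor, stretch or stress signal, without new protein synthesis. Kinases of the MAP kinase pathways activate factors such as SRF, the ternary complex factors and CREB, which already sit on the promoters of these genes. Fos and Jun proteins then pair as the factor AP-1, and Dusp1 removes the phosphates that activate the MAP kinases. In heart muscle these genes are known for their early response to hypertrophic stimuli, and Myc is known for driving growth and ribosome production. The present RNA was taken days after transfection, so the first response was not measured. Whether the levels were steady at that time was not tested.

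The mature miRNAs are shown because their seed, bases 2 to 8 and set in capitals, largely sets which transcripts a miRNA can pair with. The rat sequences of RefSeq (GRCr8) are printed, all from the minus strand of chromosome 12, at chr12:22157103-22157123, chr12:22156894-22156916 and chr12:22156652-22156673 in the order given; the mimics carry the human names.
rno-miR-106b-5p: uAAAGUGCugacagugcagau
rno-miR-93-5p: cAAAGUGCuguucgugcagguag
rno-miR-25-3p: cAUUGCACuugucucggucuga
miR-106b and miR-93 have the same seed, which 5 of 693 mature rat miRNAs in the RefSeq table carry, the others being miR-17-5p, miR-20a-5p and miR-20b-5p. miR-25 has another seed, which it shares with miR-32-5p, miR-363-3p, miR-92a-3p and miR-92b-3p.

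Values are RPKM, reads divided by gene length and by library size. Comparison between genes rests on the gene lengths, and comparison between libraries on the library sizes. Scaling to the reads on listed genes instead moved the ratios, as given below. The library sizes behind them, as recovered from the values, were in units of 1000000 reads 22.7 for the control, 29.7 for the miR-106b mimic and 27.3 for both other mimics. The methods of the study state a much smaller number of reads per sample, and this difference was not settled. The reads of each of the 9 measured genes share no common factor, so fewer whole reads would not give the deposited ratios at these relative library sizes. A difference is given as the log2 ratio of RPKM, mimic over control, with its 95% exact (Clopper-Pearson) interval from the recovered reads, which covers counting error only and leaves out differences between cultures. Genes with RPKM above 1.0 in both libraries were tested against a limit of 1.3-fold and are called higher or lower past it. All 8 cardiomyocyte markers on the list were above RPKM 1.0 in every library. Their summed RPKM was 12848 with cel-miR-67, 12937 after miR-106b, 10624 after miR-93 and 6931 after miR-25. The summed RPKM of 6 smooth muscle and pericyte markers was 757, 698, 597 and 2071 in the same order, and that of 8 fibroblast markers 821, 637, 743 and 317. The miR-25 library thus stood apart, at 0.539 of the control for the first list, 2.74 for the second and 0.387 for the third, and at 0.533 for the 6 macrophage markers. By gene, 8 of 8, 0 of 6 and 7 of 8 were lower there in these first lists, beside 22.6% of all genes. All 6 of the second were higher, and so was the fibroblast marker Lum (log2 ratio 0.87), beside 19.3%. Sums weigh abundant genes most. Behind the cardiomyocyte sum after miR-106b, 1 marker was higher and 2 lower, beside 11.9% and 12.7%. Of the 8 fibroblast markers, 0 were higher and 5 lower after miR-106b (median log2 ratio -0.55), beside the same shares. After miR-93, 0 were higher and 4 lower (-0.29), beside 15.1% and 15.6%. Lower fibroblast markers were thus not limited to miR-25. Of the endothelial markers 3 of 5 were under RPKM 1.0 in each library (summed RPKM from 4.01 to 4.97), and of the macrophage markers 2 to 4 of 6 (4.71 to 9.93); no marker of either list was at 0. Fewer cells of a type and less RNA per cell cannot be told apart in such libraries, and the part of these marker differences in the values below was not tested.

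Dusp1 had the highest RPKM of the 9 genes in every library and Fosb the lowest. In the control library the order from the top was Dusp1, Jun, Junb, Jund, Fos, Atf3, Myc, Egr1 and Fosb, and only the neighbours Junb and Jund could not be separated beyond counting error (ratio 1.02, interval 0.889 to 1.16). The order also rests on the gene lengths, which the interval takes as exact. Atf3 had 526 control reads over 4536 bases, and Junb 466 over 1783 bases. In each of the 3 mimic libraries, Jund held the second place. Atf3 lay below both Myc and Egr1 after miR-93 and above them in the other libraries. Pairs of neighbours within counting error were Junb and Jun after miR-93 and Myc and Egr1 after miR-93 and after miR-25.

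**Figure D1:**
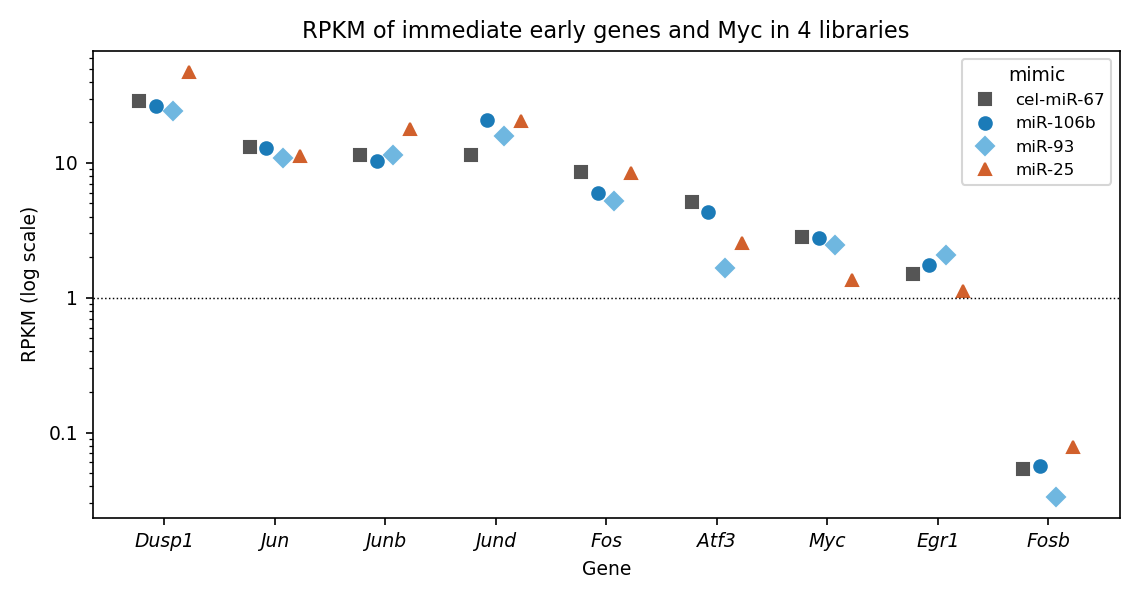
RPKM on a log axis for the 9 measured genes in each of the 4 libraries, 1 point per library, with a dotted line at RPKM 1. Dusp1 lies highest and Fosb lowest in every library, and the miR-25 point stands above the other points for Dusp1 and Junb and below them for Myc and Egr1.

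Of the 8 genes tested, Jund was higher and Fos lower after miR-106b. After miR-93, Jund and Egr1 were higher and Fos and Atf3 lower. After miR-25, Junb, Jund and Dusp1 were higher and Egr1, Atf3 and Myc lower. Against all genes tested, 11.9% were higher and 12.7% lower after miR-106b, 15.1% and 15.6% after miR-93, and 19.3% and 22.6% after miR-25. The 1 of 8 members in each direction after miR-106b is near this background, and whether counts of 2 or 3 among 8 differ from it was not tested. RPKM uses the library size, and scaling to the reads on listed genes instead raises every log2 ratio, by 0.08 for miR-106b and by 0.15 for each other mimic. Under that scaling 16.7% of all genes were higher and 9.08% lower after miR-106b, 25.1% and 9.65% after miR-93, and 29.3% and 15.9% after miR-25. The calls of the members stayed as they were, except that Egr1 was no longer past the limit after miR-25. The median log2 ratio of the 8 was -0.07 for miR-106b, -0.22 for miR-93 and -0.12 for miR-25, beside -0.0033, -0.0018 and -0.012 over all genes tested. With that scaling the medians of the members were 0.02, -0.07 and 0.03, beside 0.08, 0.14 and 0.14. By RPKM, the interval of the log2 ratio left out 0 for 3, 6 and 7 of the 8 genes. The share of all genes for which it did so was not computed, so these counts have no background. They also depend on the scaling, since for Jun after miR-25 the upper end was -0.08 and the shift is 0.15.

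**Figure D2:**
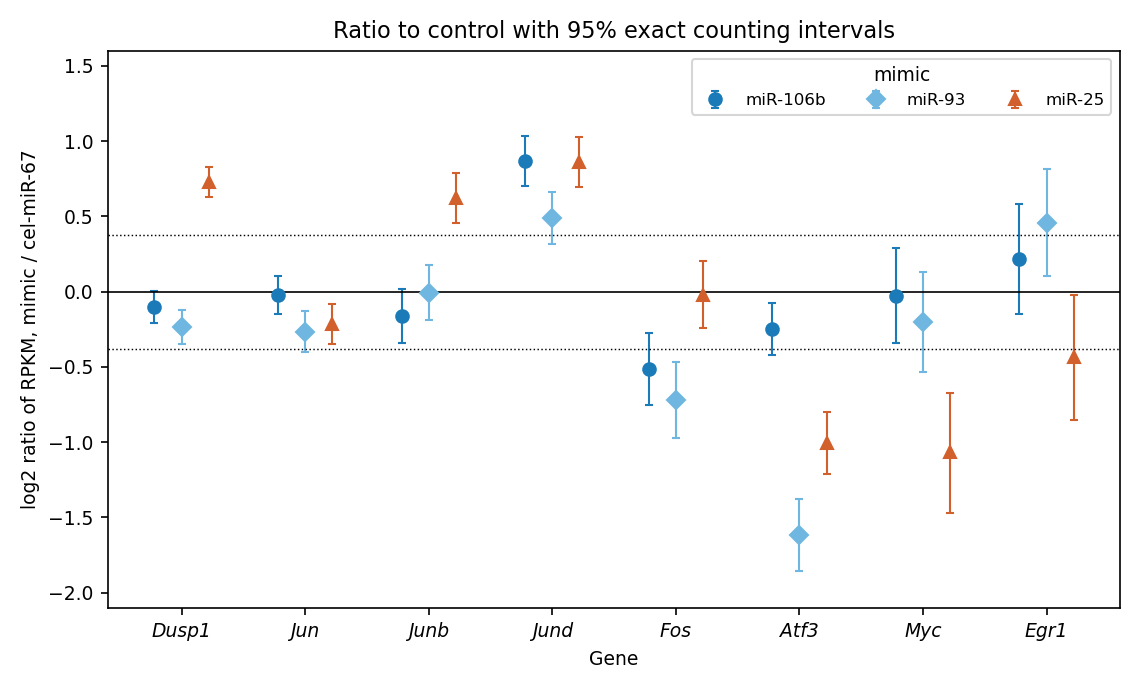
Log2 ratio of RPKM, mimic over cel-miR-67, for the 8 tested genes, with 95% exact intervals for counting error as bars and dotted lines at 1.3-fold. The 3 points of Jund lie above the upper line, Fos lies below the lower line after miR-106b and miR-93, and Myc lies below it after miR-25.

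Among the AP-1 subunits, Jund stood past 1.3-fold with each mimic. JunD is the Jun protein that resting cells hold at a steady level. Its RPKM was 11.3 in the control library (432 reads), 20.7 after miR-106b (1033 reads), 15.9 after miR-93 (730 reads) and 20.6 after miR-25 (942 reads), so the control was the lowest of the 4. The log2 ratio was 0.87 (interval 0.70 to 1.03) after miR-106b, 0.49 (0.31 to 0.66) after miR-93 and 0.86 (0.69 to 1.03) after miR-25, or 1.82-fold, 1.40-fold and 1.81-fold. All 3 ratios rest on the same 432 control reads. Between the mimics, miR-25 and miR-106b differed by a log2 ratio of -0.01 (-0.14 to 0.12), while miR-93 lay below miR-106b by a log2 ratio of -0.38 (-0.52 to -0.24).

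Jun, the partner of Fos in the classical AP-1 factor, had an RPKM of 13.0 in the control, 12.9 after miR-106b, 10.8 after miR-93 and 11.2 after miR-25. No mimic took it past 1.3-fold. The log2 ratio was -0.02 (-0.15 to 0.11) after miR-106b, -0.27 (-0.40 to -0.13) after miR-93 and -0.22 (-0.35 to -0.08) after miR-25. With scaling to the reads on listed genes the miR-93 and miR-25 values were -0.12 and -0.07.

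Junb, whose protein can hold back the activity of Jun, had an RPKM of 11.5 in the control (466 reads), 10.3 after miR-106b (546 reads), 11.5 after miR-93 (559 reads) and 17.7 after miR-25 (861 reads). Only the miR-25 library was high. Its log2 ratio stood at -0.16 (-0.34 to 0.02) after miR-106b, -0.01 (-0.19 to 0.17) after miR-93 and 0.62 (0.46 to 0.79) after miR-25. Directly compared, miR-25 was above miR-106b by 0.78 (0.63 to 0.94) and above miR-93 by 0.63 (0.47 to 0.78) on the log2 scale.

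The make-up of the Jun family differed accordingly. Summed over Jun, Junb and Jund, the RPKM was 35.9 in the control, 43.8 after miR-106b, 38.2 after miR-93 and 49.5 after miR-25. Jund held 31.6% of this sum in the control, 47.2% after miR-106b, 41.6% after miR-93 and 41.6% after miR-25. Jun held 36.3%, 29.3%, 28.4% and 22.6% in the same order. Jund was the Jun gene with the lowest RPKM in the control, though within counting error of Junb, and the one with the highest RPKM with each mimic.

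**Figure D3:**
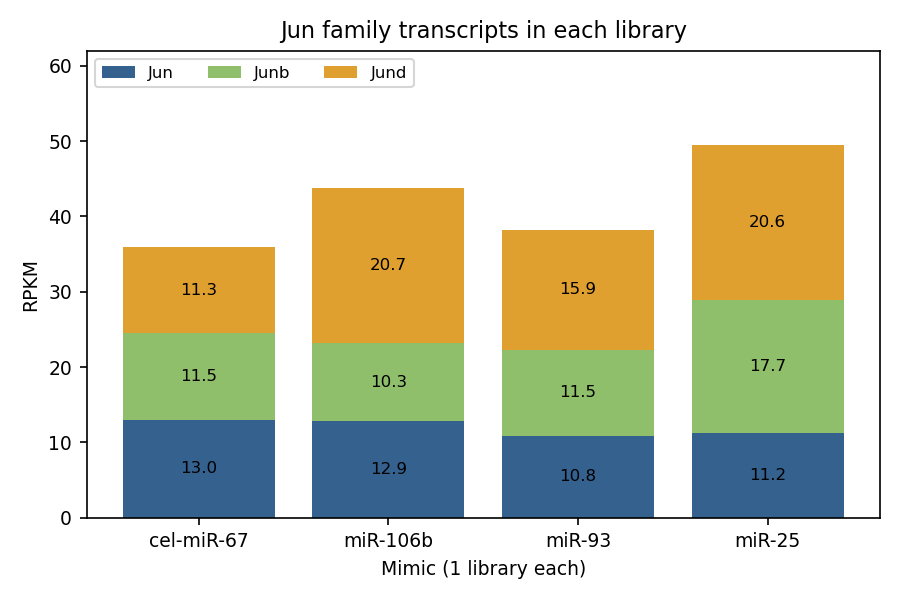
Stacked bars of the RPKM of Jun, Junb and Jund in each library, 1 library per mimic, with each value printed in its bar and the axis starting at 0. The Jund part grows from 11.3 in the control to between 15.9 and 20.7 with the mimics, and the Junb part is largest after miR-25.

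Fos was lower with the mimics of the common seed, where Jund was higher. Its RPKM was 8.52 in the control (307 reads), 5.97 after miR-106b (282 reads), 5.18 after miR-93 (225 reads) and 8.41 after miR-25 (364 reads). The control and miR-25 libraries were high and the others low. The log2 ratio was -0.51 (-0.75 to -0.28) after miR-106b and -0.72 (-0.97 to -0.46) after miR-93, and -0.02 (-0.24 to 0.20) after miR-25. The miR-25 library exceeded miR-106b by 0.49 (0.27 to 0.72) and miR-93 by 0.70 (0.45 to 0.94) on the log2 scale, while miR-93 and miR-106b differed by -0.20 (-0.46 to 0.06).

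Fosb, a Fos relative best known from activated neurons, was close to silent, with an RPKM of 0.0538 in the control, 0.0563 after miR-106b, 0.0335 after miR-93 and 0.0783 after miR-25. These values rest on 8, 11, 6 and 14 reads. The gene was below the limit for testing, and its intervals ran from -2.49 to 2.00 over the mimics on the log2 scale, so no difference was detectable at this depth. For the Fos family together (Fos, Fosb, Fosl1 and Fosl2) the summed RPKM was 11.5 in the control, 8.35 after miR-106b, 7.68 after miR-93 and 12.8 after miR-25, and Fos made up between 65.6% and 74.0% of it. The ratio of summed Jun family to summed Fos family RPKM was 3.12 in the control, 5.25 after miR-106b, 4.98 after miR-93 and 3.87 after miR-25.

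Atf3, a stress-induced factor that also pairs with Jun proteins, showed the widest span of the 8 tested genes. Its RPKM was 5.11 in the control (526 reads), 4.31 after miR-106b (581 reads), 1.67 after miR-93 (207 reads) and 2.55 after miR-25 (315 reads). The control was the highest and miR-93 the lowest. As a log2 ratio this was -0.25 (-0.42 to -0.08) after miR-106b, -1.61 (-1.85 to -1.38) after miR-93 and -1.01 (-1.21 to -0.80) after miR-25, which is 3.06-fold and 2.01-fold lower for miR-93 and miR-25. On adding a pseudocount of 1 RPKM these last values became -1.19 and -0.79. The mimics with the common seed differed here, since miR-93 lay below miR-106b by a log2 ratio of -1.37 (-1.60 to -1.13).

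Egr1, a zinc finger factor whose promoter is a standard read-out of SRF and ternary complex factor activity, had an RPKM of 1.51 in the control (107 reads), 1.75 after miR-106b (163 reads), 2.07 after miR-93 (177 reads) and 1.11 after miR-25 (95 reads). It lies close to the limit for testing. Its log2 ratio stood at 0.22 (-0.15 to 0.58) after miR-106b, 0.46 (0.10 to 0.82) after miR-93 and -0.44 (-0.85 to -0.02) after miR-25. The miR-93 and miR-25 calls were not held when 1 RPKM was added to each value, and the miR-25 call was also lost on scaling to the reads on listed genes. The direct ratio of miR-25 to miR-93 was -0.89 (-1.27 to -0.53) on the log2 scale.

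Myc was past the limit after miR-25 only. Its RPKM was 2.83 in the control (150 reads), 2.77 after miR-106b (193 reads), 2.46 after miR-93 (157 reads) and 1.35 after miR-25 (86 reads). The other libraries lay close together and miR-25 lay low. Its log2 ratio came to -1.07 (-1.47 to -0.68) after miR-25, or 2.10-fold lower, against -0.03 (-0.34 to 0.29) after miR-106b and -0.20 (-0.53 to 0.13) after miR-93. Directly, miR-25 lay below miR-106b by a log2 ratio of -1.04 (-1.42 to -0.67) and below miR-93 by -0.87 (-1.26 to -0.48). The miR-25 library is also the one with low cardiomyocyte and high smooth muscle marker sums.

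Dusp1, which switches off the kinases p38, JNK and ERK, had an RPKM of 28.5 in the control (1253 reads), 26.6 after miR-106b (1531 reads), 24.3 after miR-93 (1285 reads) and 47.2 after miR-25 (2493 reads). Only miR-25 was high. On the log2 scale the ratio was -0.10 (-0.21 to 0.01) after miR-106b, -0.23 (-0.35 to -0.12) after miR-93 and 0.73 (0.63 to 0.83) after miR-25, which is 1.66-fold higher. With scaling to the reads on listed genes the miR-93 and miR-25 values became -0.09 and 0.88. The miR-25 library was above miR-106b by 0.83 (0.74 to 0.92) and above miR-93 by 0.96 (0.86 to 1.06) on the log2 scale.

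Between mimics, the pair with the common seed differed least in the members, as it did over all genes tested. Past 1.3-fold, miR-93 against miR-106b differed in 1 of 8 genes, Atf3, beside 15.5% of all genes tested. Jund, 1.2993-fold lower after miR-93 (log2 ratio -0.38, -0.52 to -0.24), fell just short of the limit. miR-25 against miR-106b differed in 6 of 8, beside 45.1%, with Fos, Junb and Dusp1 higher and Egr1, Atf3 and Myc lower. miR-25 against miR-93 also differed in 6 of 8, beside 45.0%, with Fos, Junb, Atf3 and Dusp1 higher and Egr1 and Myc lower. Whether these shares differ from those of other genes was not tested.

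Promoters are shown for Jund, which was higher with each mimic, Dusp1, which was higher after miR-25, and Egr1. By RPKM, Egr1 was higher after miR-93 and lower after miR-25, and neither call was held when 1 RPKM was added. The promoters shown are those of the measured genes that held a match to a motif. Junb, which was also higher after miR-25, and Fosb were searched too and held no match. Of the 10 genes, 6 matched a promoter in the RefSeq table (GRCr8), namely Fosb, Junb, Jund, Egr1, Ier2 and Dusp1; the 250 bases before the start were searched. The motifs were the CRE, TGACGTCA, the AP-1 site, TGANTCA, the E-box, CACGTG, which Myc and Max bind, and the CArG box, which SRF binds. Each reads the same on both strands, and no matches overlapped in the promoters printed. Matches are in capitals.
Jund, minus strand, chr16:18769772-18770021: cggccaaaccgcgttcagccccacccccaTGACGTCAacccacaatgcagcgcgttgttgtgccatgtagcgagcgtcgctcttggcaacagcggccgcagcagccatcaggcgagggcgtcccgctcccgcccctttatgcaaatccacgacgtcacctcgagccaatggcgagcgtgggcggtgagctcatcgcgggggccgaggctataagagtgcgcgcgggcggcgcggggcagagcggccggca
Dusp1, plus strand, chr10:17184603-17184852: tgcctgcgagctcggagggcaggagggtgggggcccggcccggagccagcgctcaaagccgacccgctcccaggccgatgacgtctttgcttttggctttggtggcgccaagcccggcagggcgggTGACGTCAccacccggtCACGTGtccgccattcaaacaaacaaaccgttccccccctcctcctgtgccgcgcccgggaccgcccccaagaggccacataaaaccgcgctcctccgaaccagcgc
Egr1, plus strand, chr18:26736828-26737077: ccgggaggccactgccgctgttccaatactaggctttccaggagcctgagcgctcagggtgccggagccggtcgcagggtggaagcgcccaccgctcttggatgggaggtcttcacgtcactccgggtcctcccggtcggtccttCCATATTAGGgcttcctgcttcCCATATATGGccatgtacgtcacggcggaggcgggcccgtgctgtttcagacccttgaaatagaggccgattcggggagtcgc
The CRE was found in Jund, Dusp1 and Ier2, 3 of the 6 promoters, and in 1.59% of 33469 promoters of the table. In Jund it lay from -221 to -214 and in Dusp1 from -124 to -117 relative to the start. Dusp1 also held an E-box from -107 to -102, and an E-box was in 5.59% of all promoters. Egr1 held a pair of CArG boxes, from -105 to -96 and from -83 to -74, and 1.5% of all promoters held at least 1. The AP-1 site was in 0 of the 6 and in 6.34% of all promoters. These matches describe the letters of the windows and say nothing about binding in these cells.

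The surrounding pathway was described by lists, each given as the genes past 1.3-fold of those tested and the median log2 ratio. The counts of every list stand beside the shares of all genes tested. These were 11.9% higher and 12.7% lower after miR-106b, 15.1% and 15.6% after miR-93, and 19.3% and 22.6% after miR-25. Whether a list differs from these shares was not tested. The highest and lowest gene of a list are those among its tested genes, and untested genes further out are named with their values where either level was above RPKM 1.0, a choice made after their values were seen. Of 32 other immediate early genes, 24 were tested after miR-106b, of which 1 was higher and 6 lower (median -0.14). After miR-93 it was 2 higher and 10 lower of 23 (-0.18), and after miR-25 4 higher and 10 lower of 24 (-0.17). With scaling to the reads on listed genes these counts were 1 and 5, 3 and 7, and 6 and 6. Of all genes, 16.7% were then higher and 9.08% lower after miR-106b, 25.1% and 9.65% after miR-93, and 29.3% and 15.9% after miR-25. Lower calls outnumbered higher ones under both scalings for miR-106b and miR-93 and under the first alone for miR-25. Whether this differs from all genes was not tested. Ptgs2, the inducible cyclooxygenase, was the lowest after miR-106b, at an RPKM of 1.51 against 3.11 (log2 ratio -1.04, -1.30 to -0.77), and also after miR-25, at 1.56 (-0.99, -1.26 to -0.73). Trib1, a pseudokinase, was the lowest after miR-93, at 4.72 against 10.7 (-1.18, -1.40 to -0.96). Ptgs2 had a lower ratio there, -1.81 (-2.14 to -1.48), and was untested because its RPKM was 0.887. The highest were Klf2 after miR-106b (0.41, -0.09 to 0.92), Phlda1 after miR-93 (0.45, 0.20 to 0.71) and the small GTPase gene Rhob after miR-25 (0.83, 0.70 to 0.96).

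Other bZIP genes of the AP-1 family, 7 of 12 tested, gave 0 higher and 2 lower after miR-106b (median -0.19), 0 and 2 after miR-93 (-0.02) and 3 and 0 after miR-25 (0.19). Mafk, a small Maf protein gene, was the lowest after miR-106b, at an RPKM of 21.9 against 36.3 (log2 ratio -0.73), and after miR-93, at 10.8 (-1.75, -1.86 to -1.63). Atf2 was the highest with both, at log2 ratios of 0.22 and 0.28, within 1.3-fold. After miR-25 the ends were Fosl2 (0.59, -0.22 to 1.43) and Jdp2 (-0.36, -0.63 to -0.08). Scaled to the reads on listed genes, the list gave 0 higher and 1 lower, 2 and 1, and 3 and 0, and its median after miR-93 was 0.13.

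Upstream of the members, SRF, the ternary complex factors and CREB gave 7 tested genes of 9 on the list, with 0 higher and 1 lower after miR-106b (median -0.11), none past the limit after miR-93 (-0.13) and 2 higher and 0 lower after miR-25 (-0.18). Elk4, a ternary complex factor, was the lower gene after miR-106b (-0.42, -0.55 to -0.30). Srf itself was the lowest after miR-93, at an RPKM of 22.6 against 28.6 (-0.34, -0.42 to -0.26), within the limit. After miR-25, Elk3 was the highest (0.66, 0.45 to 0.86) and Crem the lowest (-0.36, -0.61 to -0.11). Atf1 was the highest after miR-106b and miR-93, at 0.24 and 0.19, among tested genes. Mkl1, a cofactor of SRF untested for its control RPKM of 0.835, was at 0.27 (-0.12 to 0.66) and 0.32 (-0.07 to 0.72). With scaling to the reads on listed genes Elk4 was no longer past the limit, and the median after miR-93 was 0.02.

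Of 16 MAP kinases and their kinases 15 were tested, with 1 higher and 2 lower after miR-106b (median -0.04), 1 and 3 after miR-93 (-0.08) and 5 and 2 after miR-25 (0.12). Mapk14, which encodes p38 alpha, was the highest tested gene with the mimics of the common seed. Its RPKM was 5.44 in the control, 11.2 after miR-106b (log2 ratio 1.04, 0.92 to 1.16) and 12.0 after miR-93 (1.14, 1.01 to 1.26). Untested for its control RPKM of 0.644, Map2k6, a kinase of p38, was at 1.27 (0.67 to 1.91) after miR-93. Mapk7, which encodes ERK5, was the lowest with both, at -0.93 (-1.14 to -0.72) and -0.80 (-1.01 to -0.59). After miR-25 the MEK1 gene Map2k1 was the highest (0.67, 0.55 to 0.78) and Map2k4, a kinase of JNK and p38, the lowest (-0.99, -1.17 to -0.81). On the scale of reads on listed genes the counts were 1 and 1, 4 and 3, and 6 and 2, with medians of 0.04, 0.07 and 0.27.

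Other MAP kinase phosphatases, 9 of 11 tested, were called in both directions with each mimic: 1 higher and 1 lower after miR-106b (median 0.02), 2 and 3 after miR-93 (-0.12), 3 and 4 after miR-25 (0.05). Dusp8 was the lowest after miR-106b (-0.76, -1.01 to -0.51) and miR-93, where its RPKM was 1.91 against 6.73 (-1.82, -2.16 to -1.49). Dusp4 was the highest after miR-106b (0.46, 0.36 to 0.56) and the lowest after miR-25, at an RPKM of 6.64 against 14.6 (-1.14, -1.27 to -1.01). Dusp5 was the highest after miR-93 (0.47, 0.14 to 0.80) and after miR-25, at 5.32 against 2.28 (1.22, 0.93 to 1.53). The Dusp1 difference after miR-25 therefore lay beside differences of both signs in its relatives. Scaling to the reads on listed genes gave 3 and 1, 4 and 3, and 3 and 4, with a median of 0.02 after miR-93.

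Around Myc came the partners and rivals of its network. Of all genes tested, 11.9% were higher and 12.7% lower after miR-106b. The shares were 15.1% and 15.6% after miR-93, and 19.3% and 22.6% after miR-25. Of 11 genes on the list, 7 were tested after miR-106b, with none past the limit (median 0.07). With each of the other mimics 8 were tested, with 1 higher and 0 lower each (medians -0.06 and -0.01). Whether these counts differ from the shares was not tested. The higher gene was Mxd4, a Max partner that opposes Myc, at an RPKM of 11.5 after miR-93 and 12.3 after miR-25 against 8.48 (log2 ratios 0.44 and 0.54). Mycn, the sister gene of Myc, was the lowest of the network after miR-93 (-0.18, -0.45 to 0.08) and after miR-25 (-0.28, -0.55 to -0.01), within the limit. After miR-106b the ends of the tested genes were Mxi1 (0.18) and Mga (-0.12), while Mlxip, untested at an RPKM of 0.759 against 1.20, was at -0.66 (-1.05 to -0.27). Scaling to the reads on listed genes gave 0, 3 and 2 higher and none lower, with medians of 0.15, 0.09 and 0.14.

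The list of 20 genes that Myc activates for growth held 19 tested genes. None was past the limit after miR-106b (median 0.04), 0 were higher and 1 lower after miR-93 (-0.13), and 0 were higher and 8 lower after miR-25 (-0.30), beside 22.6% of all genes lower. With scaling to the reads on listed genes the counts were 2 higher and 0 lower after miR-106b, likewise 2 and 0 after miR-93, and 0 and 3 after miR-25, the last beside 15.9% of all genes lower. That last share is near the background. The medians after miR-93 and miR-25 were then 0.02 and -0.15. Nop56, a nucleolar protein of ribosome production, was the lowest after miR-25, at an RPKM of 20.2 against 39.2 (-0.96, -1.07 to -0.84), and Nolc1 the highest (0.08, -0.03 to 0.18). Mybbp1a was the lowest after miR-93 (-0.38, -0.47 to -0.30) and Polr1b, a subunit of RNA polymerase I, after miR-106b (-0.26, -0.44 to -0.08). Ldha, which makes lactate, was the highest after miR-106b and miR-93, at 0.33 and 0.32. The miR-25 library, with 8 of 19 lower by RPKM and 11 within the limit, had the lowest cardiomyocyte and fibroblast marker sums. The part of these marker differences was not tested.

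**Figure D4:**
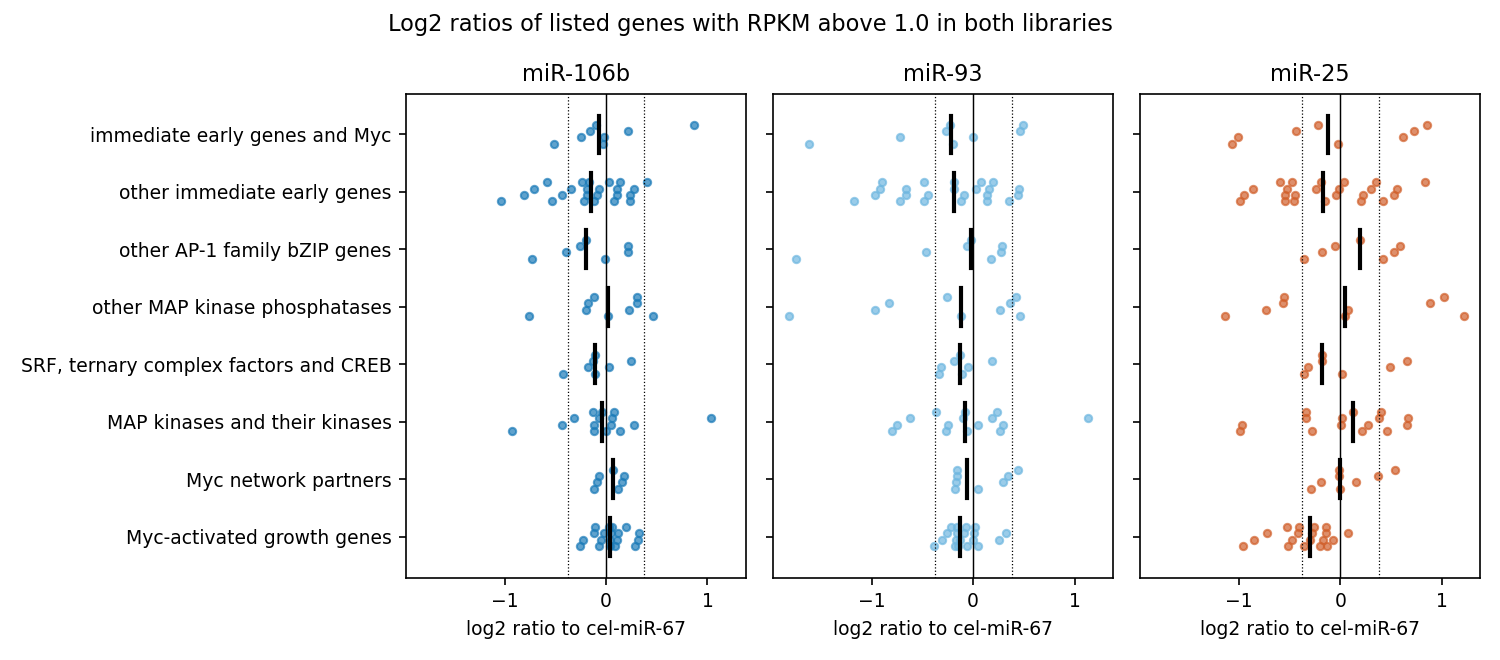
Log2 ratio to cel-miR-67 of every tested gene of each list, 1 panel per mimic, with a black bar at the list's median and dotted lines at 1.3-fold; vertical scatter within a list has no meaning. The Myc-activated genes lie mostly left of 0 after miR-25, where their median is -0.30, and near 0 after miR-106b, where it is 0.04.

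The genes whose 3 log2 ratios lay nearest to those of Fos and Myc were sought among 10692 other genes with RPKM above 1.0 in all 4 libraries, by the Euclidean distance of the 3 ratios. Nearest to Fos were Cyr61 (distance 0.0591), itself on the list of other immediate early genes, Ctdnep1 (0.0592) and Zfp365 (0.0594). Cyr61, a secreted matrix protein, had an RPKM of 56.3 in the control, 38.9 after miR-106b, 35.6 after miR-93 and 56.0 after miR-25. Nearest to Myc were Tcf19 (0.0419), Rps6kb1, the gene of the ribosomal S6 kinase (0.0884), and RGD1310335 (0.0896). Tcf19 had an RPKM of 6.32, 6.26, 5.37 and 3.07 in the control, miR-106b, miR-93 and miR-25 libraries. With 3 ratios that share a control, such nearness is a description of these libraries.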

How the data were processed

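RNA of 4 cultures of neonatal rat cardiomyocytes was sequenced, 1 library per mimic. Per the labels and the study's methods, the authors removed adaptors with Cutadapt, aligned 50-base single reads to Rnor 6.0 with STAR (2.7) and deposited RPKM values computed with edgeR. The study's methods state that the counts of genes were rounded before this step. The whole reads recovered below are such rounded counts, and the intervals treat them as reads. The counting program and the use of strand are not given in the sources used here, so reads of overlapping antisense genes cannot be told apart. Values of the series table were identical to those of each sample for all 15731 genes.

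From these values, whole reads were recovered: relative library sizes from the commonest ratio between libraries, then the smallest whole reads and a whole gene length for each gene. Values of these 15731 genes were reproduced within 1e-06. A whole length came at once for 15076 genes, and for others the reads were multiplied by a common factor or set by the smallest fitting length. A factor common to the 4 reads of a gene could go unseen, and intervals would then be too wide. The procedure was tested on simulated data. Reads on listed genes were, in units of 1000000, 15.2 for the control, 18.8 after miR-106b and 16.5 after each of the other mimics, which is 66.9%, 63.2%, 60.5% (miR-93) and 60.4% (miR-25) of the library sizes. Scaling to these reads shifts every log2 ratio up by 0.08 for miR-106b and by 0.15 for each of the other mimics.

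Ratios were taken without a pseudocount where RPKM was above 1.0 in both libraries, with a limit of 1.3-fold, as in the results text of the study, while its methods give an RPKM of 2.0 as the minimum. At these limits more genes were past 1.3-fold here, for each mimic and in both directions, than the results text of the study reports. This difference was not settled. With 1 library per mimic no p-value was computed. The members and lists were chosen with earlier results of these data known. All members are named, and from each list the genes with the highest and lowest ratio per mimic, apart from the marker lists, and the 3 genes nearest to Fos and to Myc. Alternatives were other limits, pseudocounts of 0.1 and 1 RPKM, centring on the median gene and scaling to listed reads. Computations ran in Python 3.11.15 with pandas 2.3.3 and numpy 2.4.6, intervals came from scipy 1.17.1, and plots from matplotlib 3.10.9.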

Additional observations from a re-analysis of the deposited data

How the results depend on the processing

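With an RPKM above 2.0 required in both libraries, the members higher with miR-93 numbered 1 and the members lower 1, and those lower with miR-25 numbered 1 (Atf3), because Egr1 for both mimics, Atf3 for miR-93 and Myc for miR-25 then had too low a value to be tested. With a pseudocount of 1 RPKM, 1 member was higher with miR-93 (Jund). At a limit of 1.5-fold, 0 members were lower with miR-106b and 0 higher with miR-93. At 2-fold, 0 were higher and 0 lower with miR-106b, 0 higher and 1 lower (Atf3) with miR-93, and 0 higher with miR-25. No ratio of a member past the limit changed sign under the alternatives run. Among members within the limit, scaling to the reads on listed genes turned Jun to 0.06 and Myc to 0.05 after miR-106b, Junb to 0.14 after miR-93 and Fos to 0.13 after miR-25. Of 27 log2 ratios of members, 27 stayed within their counting interval with centring on the median gene and with a pseudocount of 0.1 RPKM. With a pseudocount of 1 RPKM 25 did so, and 23 with scaling to the reads on listed genes. Of 36 list medians, 36 and 26 stayed within the reach of a typical gene's counting interval around the median with centring and with that scaling. No paired analysis was possible because each mimic had 1 library.

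Counting error is the only error these libraries give. Differences between cultures, the response in time and predicted miRNA sites were not analysed here. Depth limits Fosb, with 6 to 14 reads, and widens the intervals of Egr1 and Myc.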
